A study of Mus musculus with 6 samples.

Results

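The oogenesin genes Oog1, Oog2, Oog3 and Oog4 and the related gene Pramef12 were followed in mouse germinal vesicle (GV) oocytes, the female germ cells held at prophase of meiosis. They were chosen by symbol, as 5 of the 25353 genes of the deposited table, and all 5 had enough reads to be tested. The series compares 2 groups of 3 libraries, one from wild-type (WT) C57BL/6J mice and one labelled knockout (KO) for a mitofusin, a GTPase that drives mitochondrial fusion. Each library was made from 5 pooled oocytes and each group came from 3 mice, but no label ties a pool to its own mouse, so p-values measure the spread between pools. Both groups are given as 8 weeks old in the design and protocol text, whereas the age field reads P1. The genotype field and the protocol give the knockout as Mfn1-/-, and the title and design as Mfn2-/-. Mfn2 had 25.5, 38.1 and 32.3 normalized read counts in WT and 5.25, 5.28 and 4.50 in KO, and Mfn1 340 ± 36.3 and 386 ± 10.3 (SD, n = 3 each). The log2 fold change was -2.44 for Mfn2 (limma adjusted p = 0.00487) and 0.19 for Mfn1 (limma adjusted p = 0.482). The RNA that fell was thus that of the gene named in the title and design. Directions below are those of the libraries labelled KO. A Cre driver or deletion design is not given in the sources used here.

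Oogenesins belong to the PRAME family, germ-cell proteins built of leucine-rich repeats that have multiplied in rodents into tandem gene clusters. The founding human gene, PRAME, was found as a tumour antigen and acts as a substrate receptor of a cullin ubiquitin ligase. In the mouse, oogenesins are made by oocytes from fetal life on and are stored as maternal transcripts. Oog1, the first oogenesin described, has been reported to bind the small GTPase Ras, and Pramef12, named Pramel13 in RefSeq, is known for its need in the male germline.

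The 5 genes lie on 2 chromosomes on GRCm38. Oog1 is on chromosome 12 (87602688 to 87608850, plus strand). The other 4 stand in the PRAME cluster of chromosome 4, where 23 family genes of the table span 996 kb. In order along the chromosome these are Oog4 (143437164 to 143450324, minus strand), Oog3 (144157557 to 144162663, minus), Oog2 (144190719 to 144196934, plus) and Pramef12 (144391674 to 144408464, minus). Oog3 and Oog2 are neighbours 28.1 kb apart that point away from each other. Their coding sequences, from GENCODE M21, were 75.1% to 81.4% identical among the oogenesins and 61.0% to 64.5% between Pramef12 and any oogenesin. The antisense model Pramef12os lies inside Pramef12 without touching its exons, and no annotated gene overlaps an oogenesin.

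The promoters show what the oogenesins share with each other, and in part with other PRAME family genes, outside their coding sequence. Each line below runs 5′ to 3′ on the gene's strand from 250 bases before to 50 bases after the RefSeq start (build GRCm38.p6), at chr12:87602415-87602714 for Oog1 (plus strand), chr4:144190467-144190766 for Oog2 (plus), chr4:144162602-144162901 for Oog3 (minus), chr4:143450275-143450574 for Oog4 (minus) and chr4:144408415-144408714 for Pramef12 (minus). Capitals mark every exact string of at least 8 bases found in all 4 oogenesin promoters, and the promoter of Pramef12 is shown because it holds none of them.
Oog1: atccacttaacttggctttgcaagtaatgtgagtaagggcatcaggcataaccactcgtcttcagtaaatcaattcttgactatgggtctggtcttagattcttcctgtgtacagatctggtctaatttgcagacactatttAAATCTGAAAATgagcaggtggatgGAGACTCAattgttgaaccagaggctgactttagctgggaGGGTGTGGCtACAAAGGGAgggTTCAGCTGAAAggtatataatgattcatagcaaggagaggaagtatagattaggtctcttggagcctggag
Oog2: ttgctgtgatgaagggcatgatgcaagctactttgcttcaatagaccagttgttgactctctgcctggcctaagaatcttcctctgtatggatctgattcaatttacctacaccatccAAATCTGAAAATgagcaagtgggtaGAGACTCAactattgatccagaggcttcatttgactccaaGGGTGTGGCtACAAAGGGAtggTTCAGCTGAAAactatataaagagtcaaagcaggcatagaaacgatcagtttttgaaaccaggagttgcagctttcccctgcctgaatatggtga
Oog3: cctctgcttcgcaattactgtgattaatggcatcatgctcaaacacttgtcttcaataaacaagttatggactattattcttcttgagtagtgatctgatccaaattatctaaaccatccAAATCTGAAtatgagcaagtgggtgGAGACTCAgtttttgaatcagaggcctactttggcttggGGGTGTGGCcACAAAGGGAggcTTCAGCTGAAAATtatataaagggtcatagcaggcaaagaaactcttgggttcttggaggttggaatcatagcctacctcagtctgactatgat
Oog4: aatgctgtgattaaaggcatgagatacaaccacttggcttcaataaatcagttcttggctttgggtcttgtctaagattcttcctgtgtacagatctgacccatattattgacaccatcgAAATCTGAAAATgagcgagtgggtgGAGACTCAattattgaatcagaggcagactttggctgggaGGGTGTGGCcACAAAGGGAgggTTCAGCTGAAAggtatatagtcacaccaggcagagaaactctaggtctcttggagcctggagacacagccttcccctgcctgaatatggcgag
Pramef12: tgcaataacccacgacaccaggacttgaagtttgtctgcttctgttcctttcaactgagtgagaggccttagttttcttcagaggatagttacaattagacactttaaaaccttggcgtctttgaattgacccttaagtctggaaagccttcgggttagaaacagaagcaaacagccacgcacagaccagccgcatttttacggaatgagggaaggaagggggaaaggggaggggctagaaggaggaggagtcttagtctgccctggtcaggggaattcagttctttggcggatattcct

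There were 6 such strings, and 5 of them lay in the same order in all 4 oogenesins. They were AAATCTGAA, CTGAAAAT, GAGACTCA, GGGTGTGGC, ACAAAGGGA and TTCAGCTGAAA, of which CTGAAAAT overlaps AAATCTGAA in Oog1, Oog2 and Oog4 and overlaps TTCAGCTGAAA in Oog3. Over all 300-base promoters in the RefSeq set, searched on both strands, the longest string TTCAGCTGAAA occurred in 17 of 32851 (0.0517%). AAATCTGAA occurred in 0.426%, ACAAAGGGA in 0.493%, GGGTGTGGC in 1.35%, GAGACTCA in 1.43% and CTGAAAAT in 1.49%. These rates include the oogenesin promoters, from which the strings were taken, and are a description. TTCAGCTGAAA contains CAGCTG, a form of the E-box bound by basic helix-loop-helix factors such as the oocyte factor FIGLA, and CAGCTG by itself occurred in 16.3% of promoters. The NOBOX-type letters TAATTG were found in Oog3, Oog4 and Pramef12 and in 8% of all promoters. The letters TATATA, in 5.67% of promoters, followed the last string in every oogenesin, and began at -32 in Oog2, -31 in Oog3 and -30 in Oog4 but at -8 in Oog1, counted from the RefSeq start. The deposited table starts Oog1 23 bases further downstream, which places TATATA of Oog1 at -31, and by the deposited starts it lies at -34 in Oog2, -19 in Oog3 and -30 in Oog4. The promoters were 76.1% to 84.4% identical among the oogenesins over their aligned bases, and 56.8% to 65.9% between Pramef12 and an oogenesin.

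**Figure D1:**
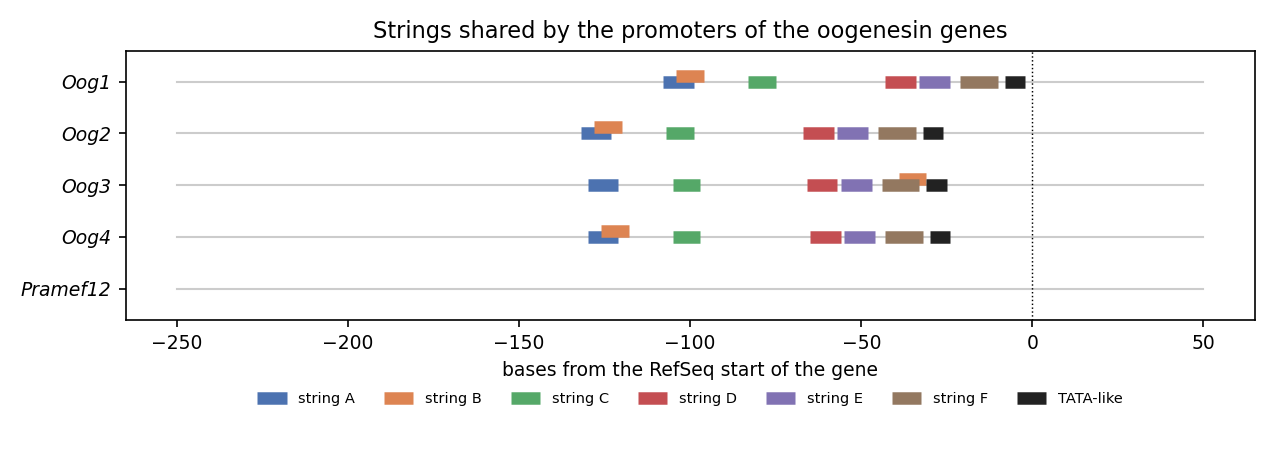
Positions of the shared strings in each promoter, as bases from the RefSeq start; strings A to F are AAATCTGAA, CTGAAAAT, GAGACTCA, GGGTGTGGC, ACAAAGGGA and TTCAGCTGAAA, and black bars mark TATATA. Oog2, Oog3 and Oog4 nearly coincide, except for string B in Oog3, Oog1 is shifted toward its start, and Pramef12 holds no bar.

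The shared strings were not particular to the oogenesins. Among 33 family genes with a promoter in the RefSeq set, the 4 oogenesins included, GGGTGTGGC was in 12 and AAATCTGAA in 10. CTGAAAAT and GAGACTCA were in 8 each, ACAAAGGGA in 7 and TATATA in 16. Gm13084 held every shared string, and C87977 and Gm13023 held all but TTCAGCTGAAA. Of the 33 genes, 7 held TTCAGCTGAAA. Besides the oogenesins, in which the string was found, these were Gm13084, C87499 and Gm13089, with mean normalized read counts of 19853, 4597 and 235 over the 6 libraries. The 26 family genes without it had a median of 6.21, although 8 of them had a mean of at least 100. The highest of these, C87977 and Gm13023, stood at 23006 and 20016. Counts of unlike genes are not scaled by length here, and the string was picked after the sequences were seen, so these levels are a description.

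How far a count can be credited to a single gene differed among the 5. When 75-base windows, the read length, were taken every 25 bases along the longest transcript, none of the 77 windows of Oog4 and none of the 96 of Pramef12 matched another annotated gene with at most 1 mismatch. Oog3 shared 25% of its windows, all with the model Gm4350. Oog2 shared 55.4%, mostly with Gm13084, another abundant PRAME gene of the chromosome 4 cluster. Oog1 shared 95.8%, with Gm2042 and Gm10436 on chromosome 12 above all. How reads that match several genes were counted is not given in the sources used here, so the values of Oog1, Oog2 and, to a lesser degree, Oog3 are uncertain as values of these genes alone. Gm2042 stood at 14036 ± 653 normalized read counts in WT and 15455 ± 1295 in KO, and Gm10436 at 16133 ± 1118 and 18339 ± 1942 (SD, n = 3 each). Neither passed the test (log2 fold changes of 0.14 and 0.18, limma adjusted p = 0.542 and 0.417).

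Oog3 was the most abundant of the 5. Per kilobase of the longest transcript, its normalized read count was 17528 ± 839 in WT and 18246 ± 952 in KO (mean ± SD, n = 3 each). This placed it at rank 15 of 23182 genes with a known length. Oog4 followed at 5610 ± 130 and 6716 ± 199 per kilobase, rank 70. Oog1 stood at 3475 ± 263 and 3679 ± 278, rank 142, and Oog2 at 2639 ± 68.6 and 2600 ± 234, rank 214. Pramef12 was far below the oogenesins, at 261 ± 21.6 and 299 ± 33.8 per kilobase, rank 2112. The order Oog3, Oog4, Oog1, Oog2, Pramef12 held in every library, and the library ranges of neighbours in this order did not overlap within WT or within KO. Oog3 alone made up 57.2% to 59.8% of the summed per-kilobase level of the 5 genes, and Pramef12 0.77% to 1.01%.

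**Figure D2:**
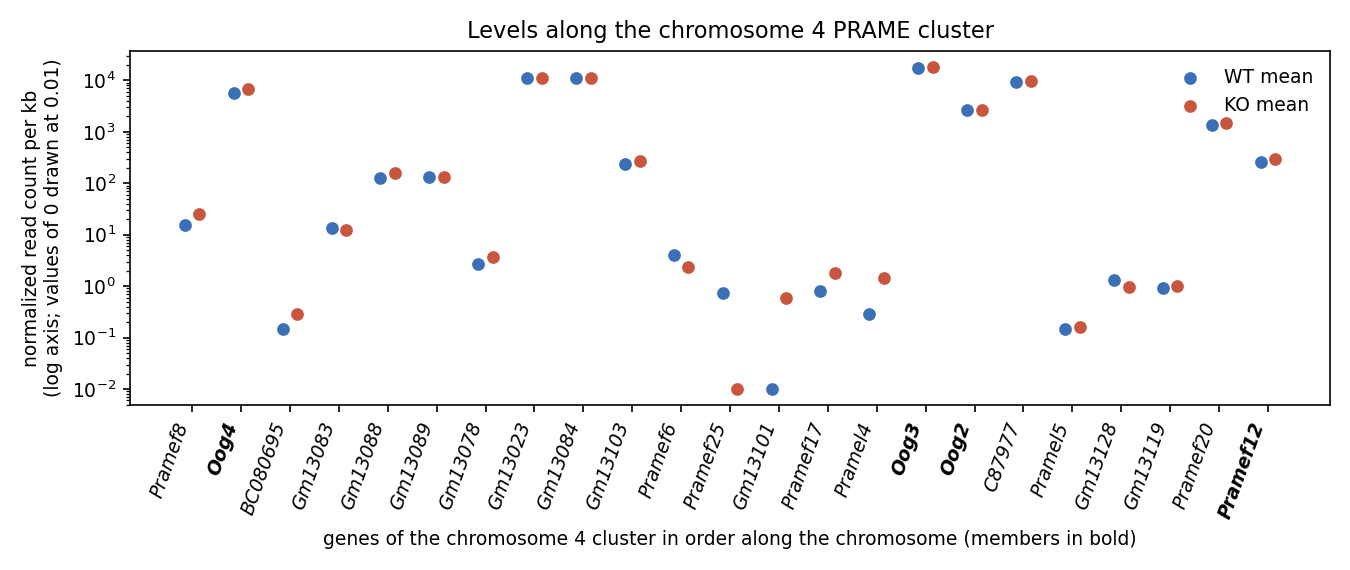
Normalized read count per kilobase (log axis) of the 23 family genes of the chromosome 4 cluster, in order along the chromosome, as WT and KO means of 3 libraries. Abundant genes such as Oog3 and Oog2 stand between stretches of genes at low levels, and the WT and KO points of the members lie close together.

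None of the 5 genes passed the test of KO against WT. The fit across all genes (limma on log2(value + 1), Benjamini-Hochberg adjusted over 18762 genes) called 615 genes, or 3.28%, and none of the members. Among the 2135 genes with a mean at least as high as that of Pramef12, it called 6.84%. At an unadjusted p under 0.05, 1 member, Oog4, was called, where 18% of all tested genes were. On whole reads recovered from the table, edgeR called 6.03% of genes and no member, and DESeq2 called 7.79% and, of the members, Oog4. The libraries held 6450191 to 7992598 reads, and each member had 585 to 37259 reads per library. Reads without molecular identifiers are not independent molecules.

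Oog4 had the highest fold change of the 5 and, on the authors' scale, was the only member whose groups did not overlap. Its normalized read counts were 11003, 10930 and 11408 in WT and 12893, 13340 and 13678 in KO. Every KO library lay above every WT library, and the gap between the groups was wider than the range within either. The KO mean was 1.2 times the WT mean (11114 ± 257 and 13304 ± 394, SD, n = 3 each). The log2 fold change was 0.26 (SE 0.10, 95% interval 0.05 to 0.46), with a limma adjusted p of 0.158, a DESeq2 adjusted p of 0.0427 and an edgeR adjusted p of 0.0977. Over the alternatives tried, the adjusted p ranged from 0.0427 to 0.352. An exact two-sided permutation test gave p = 0.1, the smallest value that 3 against 3 libraries allow. Of all tested genes, 11.5% had KO libraries wholly above WT, and 10.4% of those at least as abundant as Pramef12, so 1 of 5 members in this position is not a result about the group.

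Oog3, Oog1 and Oog2 differed by less than the spread between libraries. Oog3 had 31339, 32324 and 34405 normalized read counts in WT and 36078, 33010 and 32997 in KO. The groups overlapped on this scale, and KO replicate 1 was the highest library. The log2 fold change of Oog3 was 0.06 (SE 0.11, 95% interval -0.17 to 0.28, limma adjusted p = 0.832).

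Oog1 repeated this order of libraries. It had 8005, 8301 and 9242 in WT and 9801, 8685 and 8567 in KO, and the log2 fold change was 0.08 (SE 0.10, 95% interval -0.14 to 0.30, limma adjusted p = 0.744). In both genes WT replicate 1 was lowest, WT replicate 3 was second highest and KO replicate 1 highest. Oog2 had 5203, 4946 and 5026 in WT and 5470, 4587 and 4894 in KO. Its KO libraries held both the highest and the lowest value, and the log2 fold change was -0.03 (SE 0.10, 95% interval -0.24 to 0.19, limma adjusted p = 0.931). The upper bounds of these intervals correspond to 1.23-fold for Oog1, 1.22-fold for Oog3 and 1.14-fold for Oog2. The sign of Oog2 turned to 0.03 when reads were scaled by library totals, and that of Oog3 to -0.01 after removal of the dependence on GC content and length within each library.

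Pramef12, whose windows are unique to it, had 649, 691 and 585 in WT and 824, 724 and 658 in KO. KO replicates 1 and 2 were above all WT libraries, while KO replicate 3 lay below WT replicate 2. Its log2 fold change of 0.19 (SE 0.12, 95% interval -0.06 to 0.45) did not pass the test (limma adjusted p = 0.434). KO replicate 1 was the highest library in 4 of the 5 members. Among genes with a mean of at least 100, it was highest in 5 of 13 other PRAME family genes (38.5%) and in 24.0% of all genes.

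**Figure D3:**
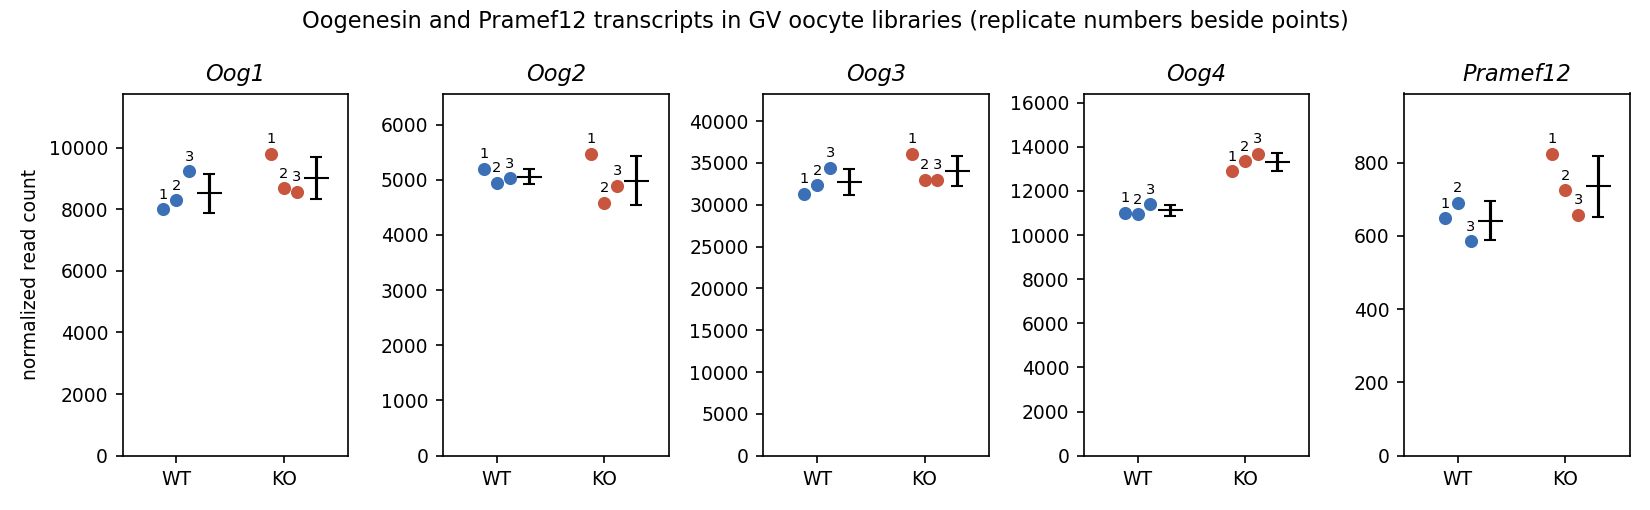
Normalized read counts of the 5 genes in each library (points, with replicate numbers) with the group mean and SD of 3 libraries (black). The KO points lie wholly above the WT points for Oog4 and overlap them for Oog1, Oog2, Oog3 and Pramef12.

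The summed normalized read count of the 5 genes was 58019 ± 2345 in WT and 62068 ± 2605 in KO (mean ± SD, n = 3 each), a ratio of 1.07. The groups overlapped, since WT replicate 3 (60666) lay above KO replicate 2 (60346), and an exact two-sided permutation test gave p = 0.2. As a share of all reads the members took 0.786% to 0.822% in WT and 0.862% to 0.941% in KO, without overlap. The members and the other PRAME family genes found by symbol, RefSeq name or Entrez ID, without Gm2042, together did not overlap on this scale either, at 2.12% to 2.18% and 2.29% to 2.51%. Of the members taken singly, Oog4 and Oog3 were wholly higher in KO as shares of all reads, as were 14.4% of all tested genes and 16.5% of those at least as abundant as Pramef12. The 2 measures differ in scaling, the first resting on the size factors of the authors and the second on library totals. Of all called genes, 57.1% were higher in KO on the authors' scale, 73.5% when scaled by library totals and 46.2% with the GC and length trend removed.

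Ratios between members within a library are free of the size factors and of the library totals. All 10 pairs were compared. Oog2 to Oog4 was 0.473, 0.453 and 0.441 in WT and 0.424, 0.344 and 0.358 in KO, and Oog3 to Oog4 was 2.85, 2.96 and 3.02 in WT and 2.80, 2.47 and 2.41 in KO. In both pairs every KO ratio lay below every WT ratio. The log2 ratios changed by -0.28 (SE 0.10) and -0.20 (SE 0.07), each with an exact two-sided permutation p of 0.1, the smallest possible, and 0.5 after Benjamini-Hochberg adjustment over the 10 pairs. The other 8 pairs overlapped, and no pair passed after adjustment, so the change of Oog4 was not separated from that of any other member. The log2 ratio of Oog1 to Oog4 changed by -0.18 (SE 0.10, exact permutation p = 0.3) and that of Oog4 to Pramef12 by 0.07 (SE 0.15, exact permutation p = 0.8). The ratio of Oog1 to Oog3 was the steadiest, between 0.255 and 0.272 over the 6 libraries, and its log2 value changed by 0.02 (SE 0.03, exact permutation p = 0.5).

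**Figure D4:**
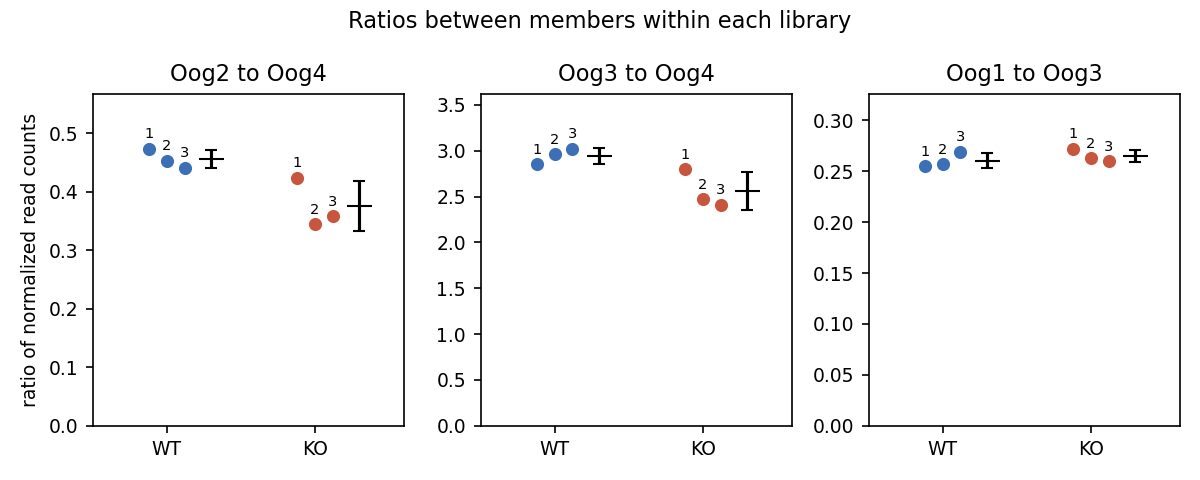
Ratios of normalized read counts within each library for 3 pairs, with the group mean and SD of 3 libraries (black). The ratios of Oog2 and Oog3 to Oog4 are lower in all KO libraries, by a small margin for KO replicate 1, and the ratio of Oog1 to Oog3 overlaps between the groups.

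The likeness of patterns over the 6 libraries was measured as the root mean square difference of log2(value + 1), with each gene centred on its own mean, among 11308 other genes with a mean of at least 20. For Oog1 the closest were Rab8b, a small GTPase of membrane traffic (0.023), and Trappc13 (0.030), and Oog3 was the fourth closest (0.033). For Oog3 they were Cdc37l1, a co-chaperone (0.026), and Dennd6a (0.028), with Oog1 the fifth. The closest to Oog2 were Ttc39c (0.025) and Mcur1, a regulator of the mitochondrial calcium uniporter (0.026). For Oog4 they were Mrpl3, a mitochondrial ribosomal protein (0.024), and Gm12454 (0.031), and for Pramef12 Sdhaf4, an assembly factor of succinate dehydrogenase (0.027), and Ptpn21 (0.033). None of these 10 genes passed the test. Oog2, Oog4 and Pramef12 were less like the other members. For each the nearest member was Oog3, at place 192 for Oog2 (0.078), 757 for Oog4 (0.123) and 879 for Pramef12 (0.136). Oog3 varied least of the members around its own mean (0.065), which tends to shorten such distances.

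The rule by symbol, RefSeq name and Entrez ID found 36 other PRAME family genes in the table, of which 29 were tested, 2 rose and none fell. These counts leave out Gm2042, the near-identical copy of Oog1 described above, which that rule did not find. All tested genes were called higher in 1.87% of cases and lower in 1.41%. The median log2 fold change was 0.18 over these 29, 0.08 over the 5 members and -0.01 over all tested genes. Over the 13 of the 29 with a mean of at least 100 it was 0.09, near that of the members. The most abundant other family genes were C87977, Gm13023, Gm13084 and Gm10436. C87977, next to Oog2 at 9.84 kb, stood at 22632 ± 691 in WT and 23380 ± 1529 in KO. Gm13023 stood at 19650 ± 319 and 20382 ± 1029, and Gm13084, the gene that shares windows with Oog2, at 19856 ± 586 and 19850 ± 1946 (SD, n = 3 each). Their limma adjusted p-values were 0.871, 0.846 and 0.991.

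Both rises lay outside the members' clusters, among the near-identical PRAME copies of chromosome 5. Gm16427 (93481829 to 93540200, minus strand), named Pramel33 in RefSeq, had 12.2, 8.37 and 13.9 normalized read counts in WT and 65.1, 82.4 and 98.9 in KO. All KO libraries were above all WT libraries, from 62 to 110 reads against 9 to 15. It rose by 2.74 on the log2 scale (SE 0.30), with a limma adjusted p of 0.000227. Gm3106 (94218005 to 94222010, plus strand), or Pramel38, had 118, 116 and 50.8 in WT and 211, 174 and 291 in KO, and rose by 1.31 (SE 0.27, limma adjusted p = 0.017). The call of Gm3106 was lost without WT replicate 3 (0.91, adjusted p = 0.074) or KO replicate 3 (1.11, adjusted p = 0.0645). Gm16427 shared 98.7% and Gm3106 86.0% of windows with other genes, 65 windows of Gm3106 with Gm16427 itself, so neither rise can be credited to a single copy.

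The groups did not overlap in 7 of the 29, or 24.1%, all with KO higher, against 11.5% of all tested genes. Named after their values were seen, the other 5 were Pramef8, Gm7792, Gm13088, Gm13103 and Gm12794. Pramef8 is the family gene next to Oog4, 16.1 kb away, and shared no window with another gene. It had 52.1, 76.3 and 48.9 in WT and 101, 101 and 88.1 in KO, with a log2 fold change of 0.73 (SE 0.22, limma adjusted p = 0.0769). Gm7792 had 11.1, 2.79 and 8.31 in WT and 23.1, 11.6 and 43.2 in KO. It shared 100% of its windows with other genes, 77 with Gm3106 and 71 with Gm16427. Gm12794 had at most 2 reads in any library and passed the filter on low values through its KO libraries only. Gm13088 and Gm13103 share 45 windows with each other. The 7 are therefore not independent, and 24.1% is not a result about the family.

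**Figure D5:**
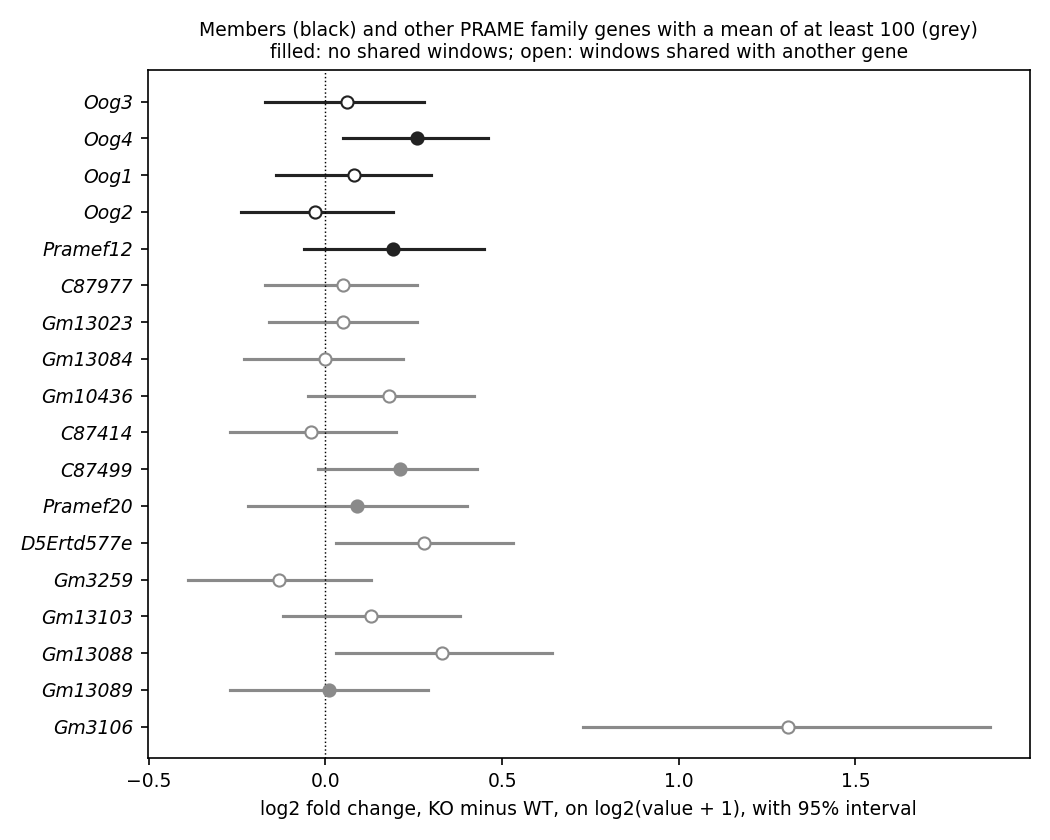
Log2 fold changes, KO minus WT, with 95% intervals for the 5 members (black) and for the 13 other family genes with a mean of at least 100 (grey); filled points share no window with another gene. Among the members the interval of Oog4 lies wholly above 0 while the other 4 include it, and Gm3106 lies far to the right of the rest.

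The oocyte identity of the libraries and other ovarian cells were checked with marker lists. All 16 oocyte markers were in the table, with a summed level of 181571 to 213105 in WT and 142697 to 183064 in KO, and only Sohlh1 had at most 3 reads in every library. Of these markers, Nlrp5 and Zar1 fell and none rose. Of 12 granulosa markers, Amh, Amhr2 and Foxl2 had at most 3 reads in every library, and the summed level was 628 to 816 in WT and 524 to 660 in KO. The stromal list (5 of 6 in the table) summed to 16.6 to 73.2 in WT and 7.19 to 11.6 in KO. The immune list (5 of 6) summed to 22.3 to 74.3 and 8.45 to 14.4. Both sums were lower in KO without overlap, as were 2197 of the 18762 tested genes taken singly. These sums are low, and only 2 stromal markers and 1 immune marker passed the filter on low values. Dcn, of the stromal list, fell, as did Cyp11a1 and Lhcgr of the theca list. The theca list (4 of 6) summed to 1892, 17.7 and 322 in WT replicates 1, 2 and 3 and to 9.45 to 54 in KO, so its groups overlapped. The part of these differences in the values of Oog4 was not tested. Endothelial (192 to 246 and 168 to 256) and surface epithelium lists (15.8 to 29.9 and 12.7 to 26.1) overlapped. In bulk samples of this kind, fewer cells of a type and less RNA per cell cannot be told apart.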

How the data were processed

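Per the labels' protocols, RNA of the 6 oocyte pools was amplified by Smart-Seq2 and sequenced in 75-base pairs from Nextera XT libraries, a kit without strand information or molecular identifiers. The submitters' processing notes list the tools STAR, cutadapt, FastQC, DESeq2 and DESeq, and mm10 beside GRCm38 as builds. Their versions, the annotation and how reads with several matches were counted: not given in the sources used here.

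Values of the deposited table are normalized read counts, a signal made by the authors that scales the reads of each library by 1 factor, and the title line names Partek and DESeq2, per the file headers. Dividing each column by the value of 1 read gave whole reads for 100% of values above 0 (tolerance 0.1 reads). On these, edgeR 4.0.16 (quasi-likelihood, TMM) called 451 genes higher and 338 lower, and DESeq2 1.42.0 called 463 and 401.

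Genes reaching 1 or more in at least 3 libraries were compared on log2(value + 1) between 3 KO and 3 WT libraries with limma-trend 3.58.1 in R 4.3.3, without covariates, and p-values were adjusted over all tested genes (Benjamini-Hochberg, threshold 0.05). Fold changes are on that scale. Groups and replicate numbers come from the sample titles. Positions are those of the table, with the base before the deposited end. Lengths, coding sequences and windows come from GENCODE M21, with windows aligned by minimap2 2.31-r1302, and promoters come from RefSeq (GRCm38.p6), matched for all 5 members by gene ID. In simulated data for KO against WT over 19209 genes, limma recovered 28% of 1.5-fold, 82% of 2-fold and 100% of 3-fold changes, at 50 genes per size. It also called 7 unchanged genes. Every simulated gene had the same added variation of 14% of its mean, and changed genes had means of at least 20. These rates are therefore not those of the members.

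PRAME family genes were found by symbol (7), RefSeq name or synonym (21) or Entrez ID (8). The members, the lists and the tests were chosen with earlier results of these data known. Named genes are the members, Mfn1 and Mfn2, family genes that passed, the 4 most abundant of the others, and the 2 genes closest in pattern to each member; others were named after their values were seen. Alternatives were 2 other pseudocounts, 2 other filters, 2 other scalings, count tests, removal of GC and length trends, a replicate block and leaving out each library.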

Additional observations from a re-analysis of the deposited data

How the results depend on the processing

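Pramef12 and Oog4 kept a positive log2 fold change under all 17 alternatives (0.11 to 0.27 and 0.21 to 0.32), Oog1 ranged from 0.00 to 0.14, and none of the members but Oog4 passed a threshold. Oog4 passed with DESeq2 alone (0.26, adjusted p = 0.0427), which tested 11098 genes after its own filtering. Oog2 turned to 0.03 under scaling by library totals and ranged from -0.09 to 0.03 when each library was left out in turn, with 0.03 without KO replicate 2. Oog3 turned to -0.01 with the GC and length trend removed; the causes were not tested. Family genes called higher numbered 4 with edgeR and no filter, with Gm7792 and Pramef8 beside Gm16427 and Gm3106, and 1 to 3 with a library left out, with 1 without WT replicate 3 or KO replicate 3 and 3 without KO replicate 1, where D5Ertd577e was added. Over all genes, edgeR without a filter called 756 higher and 549 lower, and DESeq2 called 401 lower. With a library left out the counts were 71 to 459 higher and 41 to 430 lower. The replicate block gave 246 higher and 175 lower and changed no call of a member or family gene. Same-numbered libraries did not deviate together (correlations of -0.14, -0.0674 and -0.0752 over 11309 genes), and unlike-numbered ones ranged from -0.117 to 0.176. Deviations from a group mean of 3 libraries are tied to each other, so these values show no pairing but cannot exclude it. Of the 36 other family genes, 7 did not pass the filter on low values and were not tested. The comparison of single genes as shares of all reads was chosen after seeing the data.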
